A study of Mus musculus with 2 samples.

Results

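The conventional CD4 T cells among tumor-infiltrating immune cells (TIIs) were 156 of the 5022 cells in the deposited scRNAseq table. Members were selected on measured values: each cell had a minimum of 2 UMIs (unique molecular identifiers, each standing for 1 captured transcript) summed over the CD3 genes *Cd3d*, *Cd3e*, *Cd3g*, and a minimum of 1 UMI of *Cd4*, with 0 UMIs of *Foxp3*, of *Cd8a* and *Cd8b1*, and of *Siglech*, and fewer than 5 UMIs of the macrophage and monocyte genes *Csf1r*, *C1qa*, *C1qb*, *C1qc* and *Cd14*. The TIIs came from B16-OVA tumors, a mouse melanoma line carrying ovalbumin, collected at day 14 from *Maoa* WT and *Maoa* KO hosts. The KO hosts carried a hypomorphic *Maoa* allele that originated in 129S mice and was backcrossed to C57BL/6J. For each genotype, 10 tumors were combined, live CD45.2+ cells were sorted, and 1 library was made, so every difference between genotypes is a difference between 2 libraries with no replicate. The study's methods give female mice 8 to 12 weeks old unless stated otherwise. Since the tumors were combined before sorting, no cell can be traced to an animal.

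CD4 T cells recognise peptide on class II major histocompatibility complex (MHC) molecules, and the *Cd4* co-receptor binds those same molecules. Conventional, or helper, CD4 T cells act mainly through cytokines and through contact signals such as CD40 ligand (*Cd40lg*), which licenses dendritic cells, macrophages and B cells. They differ from regulatory CD4 T cells, which carry the transcription factor *Foxp3* and restrain other T cells. Within tumors, helper cells are usually discussed by their polarisation: Th1 cells with *Tbx21* and *Ifng*, Th2 cells with *Gata3* and *Il4*, Th17 cells with *Il17a*, and follicular helper cells with *Bcl6* and *Cxcr5*.

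The library labelled WT held 65 of the cells and the library labelled KO held 91. These were 2.72% of 2392 TIIs (exact binomial 95% interval 2.10 to 3.45) and 3.46% of 2630 TIIs (2.79 to 4.23), and the intervals overlapped. Among cells within the same *Cd3*, *Siglech* and myeloid limits, the shares were 5.996% (4.66 to 7.58) and 7.32% (5.93 to 8.91). Of the cells with *Cd4* and no *Cd8a* or *Cd8b1* UMI, 57.5% (47.9 to 66.8) and 64.5% (56.0 to 72.4) had no *Foxp3* UMI and so counted as conventional. All intervals given here cover counting error only, not differences between animals. The targeted gene did not check the labels: *Maoa* (chromosome X, 16619698 to 16687818 of GRCm38, protein coding) summed over all TIIs to 7 UMIs for the WT label and 15 for the KO label. It had 0 in the conventional CD4 T cells of either library, where 3 UMIs would be 6.78 and 5.40 CPM (a gene's UMIs per 1000000 UMIs of the summed cells). The genotype names below are therefore those of the labels.

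The cells lay close to the rule's limits on *Cd4*. The *Cd4* gene had 1 UMI in 88 of the 156 cells and at most 7 in any cell, whereas the median cell held 12 UMIs of the 3 *Cd3* genes. Median depth was 5219 UMIs and 1629 genes in the library labelled WT, and 4094 UMIs and 1409 genes in the library labelled KO. Just outside the limit, 473 cells met every condition but had 0 *Cd4* UMIs, and their summed *Cd40lg* level was 13.4 CPM, compared with 48.9 CPM in members with 1 *Cd4* UMI and 85.6 CPM in members with at least 2. A further 31 cells failed on a single *Foxp3* UMI; they had 0 *Cd40lg* UMIs, with *Ikzf2* at 808 CPM and *Ctla4* at 410 CPM. A single *Cd8a* or *Cd8b1* UMI kept out 40 cells, and a *Cd3* sum of 1 kept out 2.

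The label was checked against its marker genes. *Cd4* and *Cd3e* belong to the rule, so their levels were set by the choice of cells; *Cd3e* summed to 309 CPM in the library labelled WT and 407 CPM in the library labelled KO. *Cd5*, an inhibitory co-receptor of the T cell receptor, had a UMI in 32 of 65 and 37 of 91 cells, and *Icos*, the inducible costimulator, in 33 and 41. Both also mark *Foxp3*+ cells, in which their levels were higher, so they bear on the CD4 and not on the conventional label. A minority of cells went against the label by class II MHC transcription, which belongs to antigen-presenting cells. The genes *Cd74*, *H2-Aa*, *H2-Ab1* and *H2-Eb1* together had a median of 3 UMIs per cell, but 17 of 156 cells held 98 to 1333 UMIs and carried 95.1% of all class II UMIs. No cell lay between 30 and 98. A further 3 cells held at least 50 UMIs of 6 myeloid genes (*Lyz2*, *Fcer1g*, *Tyrobp*, *Cd68*, *Fcgr3*, *Itgam*) or of the neutrophil genes *S100a8* and *S100a9*; 1 of them, in the library labelled WT, had 601 *S100a8* and *S100a9* UMIs. These 20 cells, 10 in each library, are called the high cells below. Their median depth was 11781 and 13655.5 UMIs, against 4846 and 3857 in the remaining 55 and 81 cells, and they supplied 25.2% of the UMIs. No doublet removal is described by the study, and none was run here. The limit of 50 UMIs was set after these values were seen, and the main counts and the calls that change are given with and without the high cells.

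**Figure D1:**
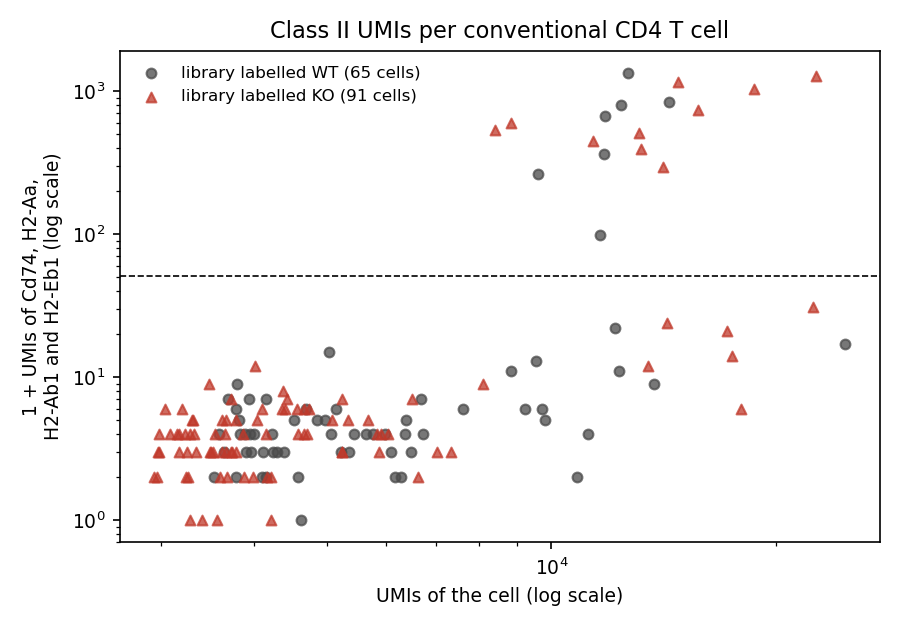
Class II MHC UMIs (1 plus the sum of *Cd74*, *H2-Aa*, *H2-Ab1* and *H2-Eb1*, log scale) against total UMIs (log scale) for each of the 156 conventional CD4 T cells; circles are the library labelled WT, triangles the library labelled KO, and the dashed line marks 50 UMIs. 17 cells sit above the line, at 98 to 1333 UMIs, and the other cells have at most 30.

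Other cell types left fewer traces. The 10 antigen-presenting genes summed to 10838 CPM in the library labelled WT and 13542 CPM in the library labelled KO, and to 672 and 839 CPM without the high cells. The 14 myeloid genes summed to 4113 and 1684 CPM, and to 1184 and 913 CPM without the high cells. All 6 neutrophil genes had UMIs in the library labelled WT (1599 CPM in sum, 123 CPM without the high cells), whereas none had a UMI in the 91 cells labelled KO. Of the 6 B cell genes in the table, *Cd79a* and *Ms4a1* were among 3 at 0 UMIs, and the list summed to 4.52 and 14.4 CPM. The 6 NK cell genes summed to 76.8 and 32.4 CPM. Of 6 melanocyte genes, 4 were at 0 and the sum was 6.78 and 3.60 CPM. Of the 4 γδ and innate-like T cell genes in the table, *Zbtb16*, the transcription factor of NKT cells, was among 2 at 0. The constant region genes of the T cell receptors were not among the table's genes and were not analysed here.

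The first question was what set the conventional cells apart from their closest relatives in the same tumors, and this comparison was made with library as the replicate. UMIs were summed over the conventional cells, over 98 *Foxp3*+ CD4 T cells (the same limits with at least 1 *Foxp3* UMI, 48 and 50 cells) and over 1356 CD8 T cells (0 *Cd4* and *Foxp3* UMIs and at least 1 *Cd8a* or *Cd8b1* UMI, 687 and 669 cells) in each library. The 6 sums were fitted in limma with library as a block, and genes used by the rule were left out of the test. Fits without the high cells left out cells over the same limit of 50 UMIs in all 3 classes. With 2 libraries per class the fit had 2 residual degrees of freedom, and it borrowed 4.19 more from the other genes. Its p-values measure only how far the differences between the 3 classes varied from one library to the other. The libraries also differ in genotype. The cells differed in depth, with medians of 7305.5 and 9681.5 UMIs for *Foxp3*+ cells and 11435 and 5571 UMIs for CD8 cells.

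Against *Foxp3*+ CD4 T cells, few genes passed the test, among them *Ms4a4b*, *Bcl2* and *Itgb1*, which were higher in the conventional cells, and *Ikzf2*, *Ctla4*, *Tnfrsf9* and *Ccl4*, which were lower. Of 10229 genes tested, 7 were higher (0.0684% of those tested) and 10 were lower (0.0978%) at an adjusted p under 0.05 (limma, Benjamini-Hochberg over all genes), while 1722 had an unadjusted p under 0.05. Without the high cells, 9 genes were higher and 15 lower, and these held 5 of the 7 and 9 of the 10.

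Among the higher genes, *Ms4a4b* encodes a membrane protein of T cells (chromosome 19, 11443553 to 11467055; all coordinates are of GRCm38). It stood at 673 CPM in the library labelled WT and 729 CPM in the library labelled KO, against 135 and 100 CPM in *Foxp3*+ cells, a difference of 2.59 ± 0.15 (log2, SE; adjusted p = 0.0078, limma). It passed in 17 of 17 alternative settings. *Bcl2*, the antiapoptotic survival factor, was at 239 and 133 CPM against 18.1 and 13.6 CPM (3.50 ± 0.31, adjusted p = 0.0234, limma). The integrin subunit *Itgb1* was at 210 and 261 CPM against 56.3 and 62.8 CPM. Neither class overlapped the other in these 3 genes.

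*Tcf7*, the transcription factor of naive and memory T cells (chromosome 11, 52252371 to 52283014), had 34 and 45 UMIs in the conventional cells and only 2 and 3 in *Foxp3*+ cells, 76.8 and 80.9 CPM against 4.02 and 5.09 CPM (adjusted p = 0.0480, limma; without the high cells adjusted p = 0.146, limma). *Tnfsf8*, which encodes CD30 ligand (chromosome 4, 63831308 to 63861347), had 29 and 18 UMIs against 0 and 0 in the *Foxp3*+ cells, at least 17.1-fold higher when the *Foxp3*+ cells of both libraries together are put at 3 UMIs. *Klra7*, a Ly49 receptor, had 14 and 9 UMIs against 0 and 0, at least 8.34-fold higher by the same measure, but rested on 4 cells in each library and did not pass without the high cells (adjusted p = 0.0569, limma). Ly49 genes are near-identical, so its assignment within the family is uncertain.

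*Cd40lg* (chromosome X, 57212143 to 57224042) encodes the contact signal of helper cells. In the library labelled WT 16 cells held 22 *Cd40lg* UMIs and in the library labelled KO 32 cells held 44, that is 49.7 CPM (31.1 to 75.2) and 79.1 CPM (57.5 to 106). The *Foxp3*+ cells had 0 and 1 UMIs and the CD8 cells, with far more UMIs in total, 5 and 6. The classes did not overlap, yet the difference from *Foxp3*+ cells did not pass the test (adjusted p = 0.0848, limma), and that from CD8 cells was near the limit (6.04 ± 0.99, adjusted p = 0.0493, limma; without the high cells adjusted p = 0.153, limma). It passed in 4 of 15 and 7 of 15 alternatives, always with the same direction.

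Of the regulatory program, 15 genes were tested, 3 were lower in the conventional cells, beside 0.0978% of all genes, and none was higher, and the list's median difference was -1.90, beside -0.10 over all genes tested. *Foxp3* itself belongs to the rule and is not counted. *Ikzf2*, which encodes Helios (chromosome 1, 69531214 to 69687245), stood at 129 and 149 CPM against 701 and 626 CPM (-2.26 ± 0.18, adjusted p = 0.0233, limma). *Ctla4*, the inhibitory receptor for B7 ligands (chromosome 1, 60887000 to 60915832), stood at 97.1 and 77.3 CPM against 434 and 327 CPM (-2.12 ± 0.15, adjusted p = 0.0194, limma). *Tnfrsf9*, or 4-1BB, stood at 203 and 122 CPM against 697 and 714 CPM. Each was lower in both libraries by more than the libraries differed, and each call held without the high cells. Other members of the list were not called although their levels were far apart: *Il2ra*, the interleukin-2 receptor α chain, was at 13.6 and 25.2 CPM against 86.4 and 120 CPM, and *Tnfrsf4*, or OX40, at 662 and 239 CPM against 1427 and 1195 CPM.

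The remaining lower genes were not part of the regulatory list. The chemokine *Ccl4* stood at 49.7 and 52.2 CPM against 772 and 604 CPM (-3.74 ± 0.17, adjusted p = 0.00478, limma). The others were the glutaredoxin *Glrx*, the membrane protein *Cmtm7*, *Pglyrp1*, *Rilpl2*, *Sdf4* and the cystatin *Cst7*, with differences of -1.91 to -1.38; *Cmtm7* did not pass without the high cells (adjusted p = 0.0569, limma). *Il7r*, the interleukin-7 receptor of resting T cells, did not pass, at 176 and 164 CPM against 88.4 and 37.3 CPM.

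The markers *Icos* and *Cd5* were lower in the conventional cells in both libraries but did not pass. *Icos* was at 160 and 135 CPM in the conventional cells and 247 and 210 CPM in the *Foxp3*+ cells (adjusted p = 0.158, limma), and *Cd5* at 174 and 135 CPM against 235 and 217 CPM (adjusted p = 0.230, limma). The class II signal was present in both: the 10 antigen-presenting genes summed to 10811 and 17651 CPM in *Foxp3*+ cells, and to 1132 and 1441 CPM there without the high cells.

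**Figure D2:**
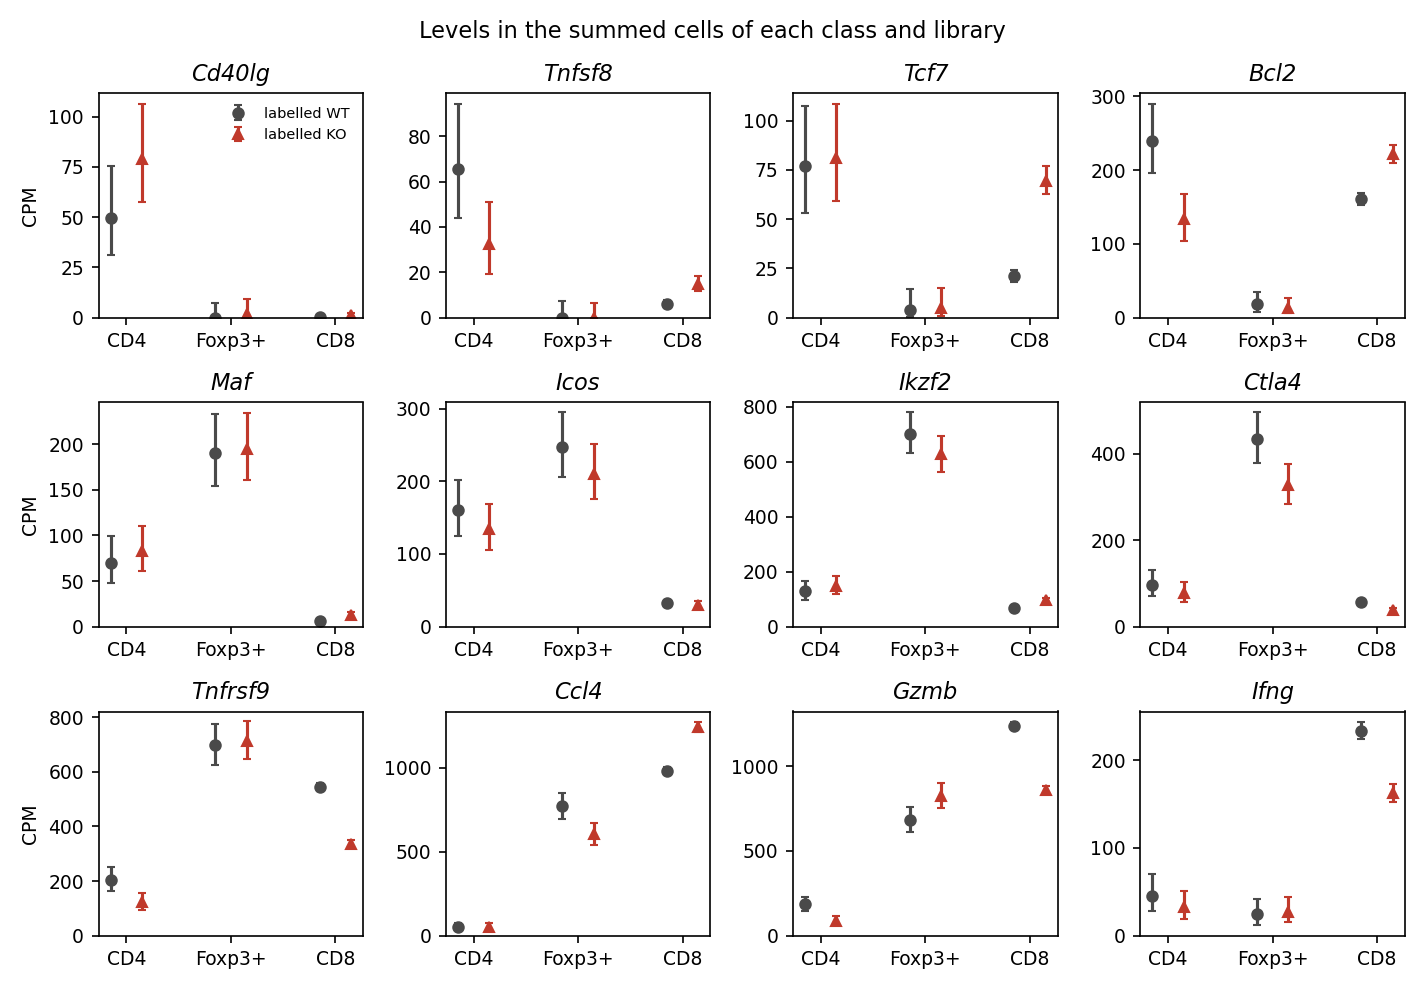
CPM of 12 genes in the summed conventional CD4 T cells (CD4), *Foxp3*+ CD4 T cells and CD8 T cells; circles are the library labelled WT, triangles the library labelled KO, and bars are exact 95% Poisson intervals for counting error. *Cd40lg* is near 0 outside the conventional cells, *Tcf7*, *Bcl2* and *Tnfsf8* are lowest in *Foxp3*+ cells, *Ikzf2* and *Ctla4* are highest there, and *Ccl4*, *Gzmb* and *Ifng* are highest in CD8 cells, with *Gzmb* and *Ccl4* also high in *Foxp3*+ cells.

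Against CD8 T cells, the genes that passed with and without the high cells included *Icos*, *Maf*, *Izumo1r* and *Itgb7*, which were higher in the conventional cells, and *Ccl3*, *Ccl4* and *Nkg7*, which were lower. The conventional cells are the same as in the comparison with *Foxp3*+ cells. At an adjusted p under 0.05 (limma), 121 genes were higher (1.18% of 10229) and 49 were lower (0.479%). These counts depended on the high cells: without them 7 genes were higher and 4 lower, all 11 of which were among those 170 genes. With 0 UMIs of the 5 myeloid genes required of the cells of all 3 classes, 7933 genes were tested and limma called 0, with 508 at an unadjusted p under 0.05. Under median of ratios scaling the split was 131 higher and 111 lower.

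Several of the higher genes are well known in helper cells. *Icos* (chromosome 1, 60977927 to 61000320) was at 160 and 135 CPM against 32.7 and 30.4 CPM in CD8 cells (2.21 ± 0.15, adjusted p = 0.00888, limma), and passed in 16 of 17 alternatives. *Maf*, a transcription factor of Th2, follicular and regulatory cells (chromosome 8, 115682942 to 115707794), was at 70.0 and 82.7 CPM against 6.13 and 12.6 CPM (3.09 ± 0.28, adjusted p = 0.0140, limma). *Izumo1r*, which encodes folate receptor 4, was at 117 and 108 CPM against 17.6 and 22.2 CPM (2.50 ± 0.18, adjusted p = 0.0103, limma). The gut-homing integrin subunit *Itgb7* and the interferon-inducible *Ifi27l2a* were also higher in both fits, by 2.36 ± 0.27 and 1.45 ± 0.09. In *Foxp3*+ cells *Maf* stood at 191 and 195 CPM and *Izumo1r* at 217 and 238 CPM, above the conventional cells in both libraries, although neither difference passed (-1.34 and -1.01, adjusted p = 0.142 and 0.103, limma). *Itgb7* was at 422 and 473 CPM in *Foxp3*+ cells, against 314 and 277 CPM in the conventional cells. *Ifi27l2a* was at 4656 and 2779 CPM there, against 3004 and 2043 CPM. These 2 genes did not pass either (adjusted p = 0.323 and 0.0926, limma).

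Of the cytotoxic list, 8 of 18 genes tested were lower, beside 0.479% of all genes, and none higher, with a median of -2.47 beside 0.02 over all genes tested; without the high cells 3 of 18 were lower and the median was -2.61. These 3 were *Nkg7*, a granule protein (678 and 630 CPM against 2723 and 2452 CPM; -1.98 ± 0.08, adjusted p = 0.00113, limma), *Ccl4* (49.7 and 52.2 CPM against 981 and 1244 CPM; -4.43 ± 0.17, adjusted p = 0.00113, limma) and *Ccl3* (49.7 and 37.8 CPM against 943 and 1140 CPM; -4.58 ± 0.40, adjusted p = 0.0135, limma). *Ccl3* and *Ccl4* lie beside each other on chromosome 11 (83647844 to 83649355 and 83662584 to 83664683) and encode inflammatory chemokines. *Gzmb*, or granzyme B, was lower at 185 and 86.3 CPM against 1239 and 858 CPM (-3.03, adjusted p = 0.0155, limma), and at -2.80 with an adjusted p of 0.0583 (limma) without the high cells. The perforin gene *Prf1* had 3 and 0 UMIs. *Crtam* had 0 UMIs in the conventional cells and 394 in the CD8 cells, at least 8.93-fold lower with the conventional cells of both libraries put at 3 UMIs. Neither *Prf1* nor *Crtam* was among the 8 genes that passed.

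Of the checkpoint list, *Lag3*, *Havcr2* and *Tox* were lower, 3 of 12 tested, beside 0.479% of all genes, and the list's median was -1.17. None passed without the high cells, although the differences were -2.92, -2.23 and -1.45 with them and -3.08, -2.73 and -1.16 without. *Lag3* was at 70.0 and 25.2 CPM against 354 and 289 CPM. *Pdcd1*, or PD-1, did not pass, at 111 and 144 CPM against 411 and 261 CPM. Other members had differences above 0 and did not pass, among them *Ctla4* (0.88, at 97.1 and 77.3 CPM against 58.0 and 38.4 CPM; adjusted p = 0.0523, limma), *Btla* (2.16), *Nt5e* (2.26), *Tox2* (1.39) and *Cd200* (0.65). The Th1 cytokine *Ifng* was lower, at 45.2 and 32.4 CPM against 234 and 162 CPM (-2.34, adjusted p = 0.0170, limma; -2.18 and 0.117 without the high cells, limma), whereas the Th1 chemokine receptor *Cxcr3* was higher, at 158 and 192 CPM against 38.1 and 64.0 CPM (1.82, adjusted p = 0.0411, limma; 1.97 and 0.0583 without, limma). *Zbtb7b*, which encodes the CD4 lineage factor ThPOK, was higher at 31.6 and 23.4 CPM against 5.03 and 5.94 CPM (2.28, adjusted p = 0.0477, limma; 2.46 and 0.143 without, limma). *Runx3*, a factor of the CD8 lineage, did not pass, at 90.4 and 66.6 CPM against 135 and 122 CPM (adjusted p = 0.110, limma).

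Interferon response genes and some helper genes had calls in the higher direction. Of 16 interferon response genes, 5 were higher (*Isg15*, *Irf7*, *Ifi27l2a*, *Rtp4*, *Zbp1*), with a median of 1.02 beside 0.02 over all genes tested, where 1.18% were higher. Without the high cells 1 was higher and the median was 0.75. The 16 genes summed to 7409 and 4507 CPM in *Foxp3*+ cells, against 5184 and 3742 CPM in the conventional cells. Between those classes none of the 16 passed with all cells (median -0.12), and 1 was lower in the conventional cells without the high cells. *Rora*, a nuclear receptor of Th17 and innate lymphoid cells, was higher at 88.1 and 93.5 CPM against 29.3 and 20.5 CPM, a difference of 1.88, but did not pass without the high cells, where it was 2.08 (adjusted p = 0.0542, limma). In *Foxp3*+ cells *Rora* stood at 111 and 115 CPM, and its difference from the conventional cells did not pass (adjusted p = 0.508, limma). None of the 14 cell cycle genes passed, with a median of -0.74.

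Among the genes with the greatest differences from CD8 cells, several followed the high cells. *Cd209a*, a dendritic cell lectin, was higher by 3.66 in all cells and at -1.76 without the high cells. *H2-Eb1* moved from 2.32 to -0.04, and *Cd74* from 2.51 to 0.39. Both genes are among those that define the high cells, so their fall was set by that choice. *Ifitm6* and *Kmo* had too few UMIs to be tested once the high cells were left out. Of 10 antigen-presenting genes tested, 5 were higher with the high cells and 0 of 7 without. That list holds *Cd74*, *H2-Aa*, *H2-Ab1* and *H2-Eb1*, so its change was partly set in the same way. The part of the high cells' other transcripts in the remaining calls was not tested. In contrast, *Maf* moved only from 3.09 to 3.06, *Icos* from 2.21 to 2.45 and *Ccl4* from -4.43 to -5.40.

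The second question was how the helper program was spread over the cells. Since depth differed, each cell was thinned to 3200 UMIs, which kept 65 cells of the library labelled WT and 81 of the library labelled KO (10 cells were shallower). *Cd40lg* then had a UMI in 10.8% (4.44 to 20.9) and 27.2% (17.9 to 38.2) of the conventional cells. The *Foxp3*+ cells had 0 of 48 in each library, where 3 cells would be 6.25%, and the CD8 cells 0.29% and 0.78%. Before thinning the shares in the conventional cells were 24.6% and 35.2%. The source of the *Cd40lg* UMIs in the CD8 cells was not tested. *Icos* was found in 36.9% and 35.8% of thinned cells, *Cd28* in 53.8% and 56.8%, and *Cd5* in 29.2% and 33.3%; the CD8 cells had 11.9% and 10.9%, 33.6% and 32.3%, and 15.6% and 18.4%. *Tcf7* was found in 15.4% (7.63 to 26.5) and 32.1% (22.2 to 43.4), against 2.08% and 4.17% of *Foxp3*+ cells. The summed CD8 cells held *Tcf7* at 21.1 and 69.5 CPM, against 76.8 and 80.9 CPM in the conventional cells. That difference did not pass (adjusted p = 0.296, limma).

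**Figure D3:**
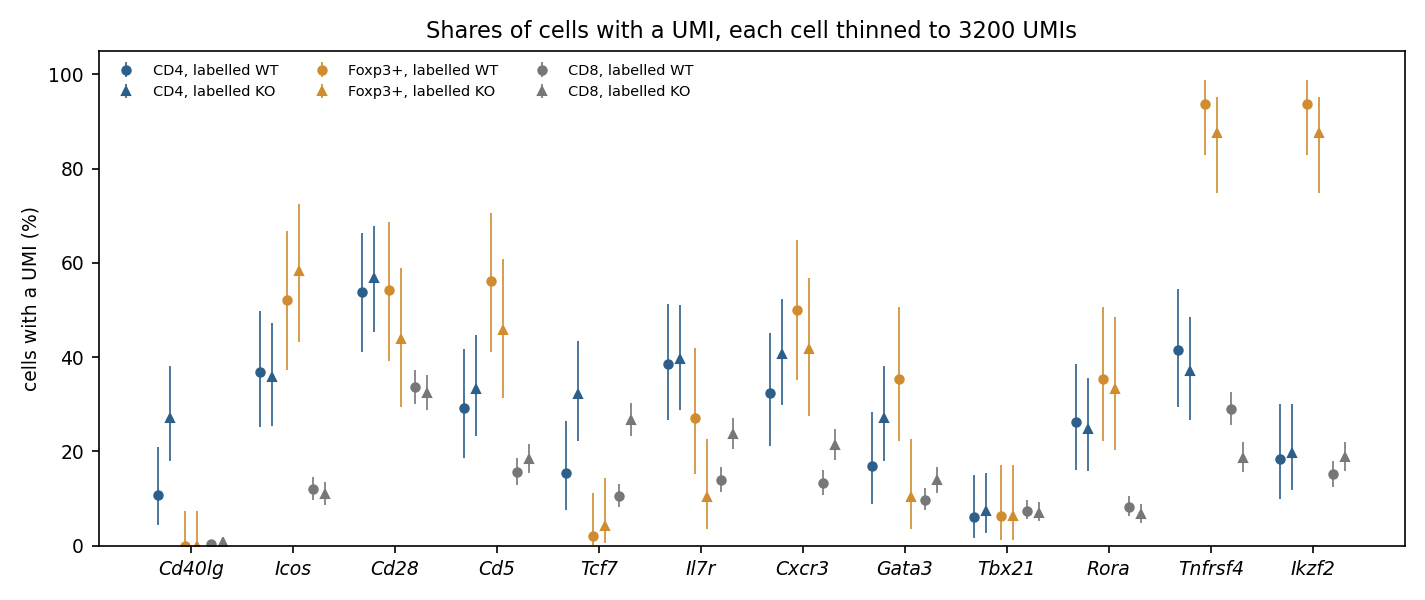
Share of cells with at least 1 UMI (%) of 12 genes after thinning each cell to 3200 UMIs, in conventional CD4, *Foxp3*+ CD4 and CD8 T cells; circles are the library labelled WT, triangles the library labelled KO, and bars are exact 95% binomial intervals. *Cd40lg* is found in 10.8% and 27.2% of conventional cells and in under 1% of the other classes, and *Ikzf2* in 18.5% and 19.8% of conventional cells against 93.8% and 87.5% of *Foxp3*+ cells.

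The lineage genes of helper cells named here had few UMIs apart from *Cxcr3*, *Gata3*, *Rora* and *Maf*, and no polarisation was ranked above another from them. At least 1 UMI of *Tbx21*, *Ifng*, *Cxcr3* or *Il12rb2* was found in 42 of 65 cells (64.6%, 51.8 to 76.1) and 59 of 91 cells (64.8%, 54.1 to 74.6). Most of this came from *Cxcr3*, with 70 and 107 UMIs, a gene with like levels in *Foxp3*+ cells (189 and 153 CPM against 158 and 192 CPM); *Tbx21*, the Th1 master regulator, had 9 and 15 UMIs and *Ifng* 20 and 18. Of *Il4*, *Il13*, *Il1rl1*, *Ccr4* and *Ccr8*, some UMI was found in 7 and 8 cells, while *Il4* and *Il13* themselves had none. *Gata3* had 29 and 52 UMIs, a gene that CD4 T cells of other kinds express too. *Rora* had 39 and 52 UMIs and *Maf* 31 and 46, and the CPM of both were higher in *Foxp3*+ cells. The Th17 cytokines *Il17a*, *Il17f* and *Il22* were at 0. Of 4 follicular helper genes, some UMI was found in 5 and 4 cells; *Bcl6* was at 0, *Cxcr5* at 2 and 3, and *Il21* at 3 and 2. *Il2*, the T cell growth factor, had 13 and 21 UMIs. A count of 0 here limits abundance and does not show absence: 3 UMIs in either library would be 6.78 or 5.40 CPM.

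A minority of the conventional cells carried *Ikzf2*, and cells with and without it had unlike shares of some other genes, as they had among CD8 cells. *Ikzf2* had a UMI in 36 of 156 cells, 16 and 20 by library. Of those 36, *Tnfrsf18*, which encodes GITR, was found in 36, *Ctla4* in 18, *Capg* in 30 and *Klrg1* in 6. Of the 120 cells without *Ikzf2*, the same genes were found in 83, 19, 58 and 0. Conversely, *Tcf7* was found in 3 of 36 and 48 of 120 cells. *Cd40lg* was found in 1 of 16 cells with *Ikzf2* and 15 of 49 without in the library labelled WT, but in 7 of 20 and 25 of 71 in the library labelled KO, so the libraries did not share a difference. *Izumo1r* was found in 14 of 36 and 34 of 120. Among CD8 cells with and without *Ikzf2*, *Ctla4* was found in 180 of 452 and 187 of 904, *Tnfrsf18* in 396 and 561, and *Tcf7* in 57 and 289, in the same directions as in the conventional cells. Median depth was 5541 and 4325 UMIs in the conventional cells and 12612 and 6277.5 UMIs in the CD8 cells, and its part in these shares was not tested. In the library labelled WT alone, *Tcf7* had a UMI in 0 of 16 cells with *Ikzf2* and 20 of 49 without, and in the library labelled KO in 3 of 20 and 28 of 71. After thinning, *Ikzf2* was found in 18.5% and 19.8% of the conventional cells, close to the 15.1% and 18.8% of CD8 cells and far from the 93.8% and 87.5% of *Foxp3*+ cells. Whether the *Foxp3* transcript was absent or missed in a given cell cannot be told apart.

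The third question was how the conventional cells of the library labelled KO differed from those labelled WT. Without replicates no test was possible, and a gene was counted when it differed at least 2-fold. Of 3664 genes with at least 30 UMIs, 65 were at least 2-fold higher in the library labelled KO (1.77%) and 124 at least 2-fold lower (3.38%); the median log2 ratio was -0.002. Without the high cells, 2822 genes were left, 59 were higher and 82 lower, and 24 and 53 of the genes were in both counts. Most genes were thus within 2-fold, and many of the most extreme rested on a few cells.

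The most extreme of the lower genes were neutrophil transcripts. *S100a8* had 379 UMIs labelled WT and 0 labelled KO, at least 159-fold lower in the latter with the cells labelled KO put at 3 UMIs, but 361 of the 379 were in 1 cell. *S100a9* had 270 and 0 UMIs, 240 of them in 1 cell, and *Retnlg* 54 and 0, with 52 in 1 cell. *S100a9* had a UMI in 27 of 65 cells labelled WT, that cell included, and in 0 of 91 labelled KO. In CD8 cells *S100a8*, *S100a9* and *Retnlg* stood at -2.79, -2.80 and -1.60 (log2, KO to WT). In *Foxp3*+ cells they had 34, 29 and 3 UMIs labelled WT and 0 each labelled KO. The macrophage genes *Lyz2* (-2.58), *Ccl2* (-2.67) and *Cxcl2* (-3.04) were lower too; without the high cells they were at 0.02, -0.70 and -2.07. Likewise *Ccl1*, at -2.93, had 38 of its 39 UMIs labelled WT in 1 cell, and *Ccl22*, with 0 and 68 UMIs, had 55 in 1 cell.

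A smaller set was spread over many cells and had the same direction in the other T cells. *Apobec3*, a cytidine deaminase that restricts retroviruses (chromosome 15, 79891659 to 79915906), was found in 5 of 65 cells labelled WT (7 UMIs) and in 59 of 91 labelled KO (153 UMIs), that is 15.8 CPM (6.36 to 32.6) and 275 CPM (233 to 322), a log2 ratio of 4.03 (3.04 to 5.46). This ratio was 2.40 in CD8 cells and 2.32 in *Foxp3*+ cells. *Ctse*, the aspartic protease cathepsin E (chromosome 1, 131638306 to 131675505), had 46 UMIs in 33 cells labelled WT and 3 in 2 cells labelled KO (-4.06), with -4.58 in CD8 and -4.66 in *Foxp3*+ cells. *Gdpd3*, a phosphodiesterase of lysophospholipids (chromosome 7, 126766334 to 126775649), had 71 and 5 UMIs (-4.03), with -4.94 and -5.17 in the other classes. *Cap1*, an actin regulator (chromosome 4, 122859047 to 122886056), had 171 and 53 UMIs (-2.01), with -2.33 and -2.27. These 4 genes were beyond 2-fold in all 3 T cell classes. *Cap1* lay outside the rule for named genes and was chosen after its values were seen.

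Among T cell genes, *Klf2*, the transcription factor that promotes quiescence and egress (chromosome 8, 72319033 to 72321656), had 159 UMIs labelled WT and 55 labelled KO, 359 CPM (306 to 420) and 98.9 CPM (74.5 to 129), a log2 ratio of -1.85 (-2.33 to -1.41). It had a UMI in 35 of 65 and 36 of 91 cells, and after thinning in 43.1% (30.8 to 56.0) and 32.1% (22.2 to 43.4), with overlapping intervals. The CD8 cells were at -0.05 (-0.25 to 0.14) and the *Foxp3*+ cells at -2.17. Other genes of resting T cells did not all follow: *Satb1* was at -1.13, *Ccr7* at -0.89 and *Lef1* at -0.62, but *Tcf7* was at 0.07, *Il7r* at -0.11 and *S1pr1* at 0.65.

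*Dusp2*, a nuclear phosphatase induced by T cell receptor signals, had 78 and 17 UMIs (-2.49, -3.38 to -1.76), with -1.81 in CD8 and -2.01 in *Foxp3*+ cells. It was the only one of 8 early-response genes beyond 2-fold, and *Fos*, *Jun*, *Junb* and *Nfkbia* were not. Over all genes, 3.38% were at least 2-fold lower and 1.77% higher. *Tnfrsf4* had 293 and 133 UMIs (-1.47, -1.77 to -1.17), of which 74 were in 1 cell labelled WT, and was the only one of 12 activation genes beyond 2-fold. The inhibitory ligand *Cd200* had 28 and 8 UMIs (-2.07) and *Lag3* 31 and 14 (-1.45). *Cd40lg* had 22 and 44 UMIs, with overlapping intervals. *Odc1*, the rate-limiting enzyme of polyamine synthesis, had 43 and 158 UMIs (1.54, 1.05 to 2.07), with 0.99 in CD8 and 2.54 in *Foxp3*+ cells.

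Among the T cell lists described here, the cell cycle genes had the lowest median. Of 13 with enough UMIs, 5 were at least 2-fold lower (*Birc5*, *Ccnb2*, *Rrm2*, *Tyms*, *Ube2c*), none was 2-fold higher (3.38% and 1.77% of all genes), 10 had intervals wholly below 0, and the median was -0.95, beside -0.002 over all genes. Without the high cells, 6 of 11 were lower and the median was -1.19. The UMIs came from few cells: *Mki67* had 34 UMIs in 12 cells labelled WT and 22 in 6 labelled KO, and of the 490 and 403 *Hmgb2* UMIs, 145 and 142 were in 1 cell each. In CD8 cells *Birc5* was at -0.86 and *Ube2c* at -0.78, and in *Foxp3*+ cells at -0.20 and -0.11.

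In the checkpoint list, *Cd200* and *Lag3* were at least 2-fold lower, 2 of only 5 genes with enough UMIs. Over all genes, to be set beside this list and those below, 3.38% were at least 2-fold lower and 1.77% higher. The checkpoint median was -0.90, beside -0.002 over all genes, or -0.67 over 4 genes without the high cells. No other T cell list described here had more than 2 genes beyond 2-fold in either direction. The T cell receptor list had 0 of 14, with a median of 0.02, and all of *Lck*, *Lat*, *Zap70*, *Cd28* and *Cd5* were within 2-fold. The Th2 list had 0 of 4. The cytotoxic list was split, with *Gzma* (-1.89) and *Gzmb* (-1.09) lower and *Gzmc* (1.20) and *Klrd1* (1.01) higher; 25 of the 27 *Gzmc* UMIs labelled KO were in 1 cell, and *Klrd1* was at -0.12 without the high cells. *Gzma* was at 0.40 in cells with 0 UMIs of the 5 myeloid genes. In the interferon list 1 of 16 genes, *Isg15*, was 2-fold lower (-1.02), with 93 of its 189 UMIs labelled WT in 1 cell, and it was at 0.42 without the high cells.

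**Figure D4:**
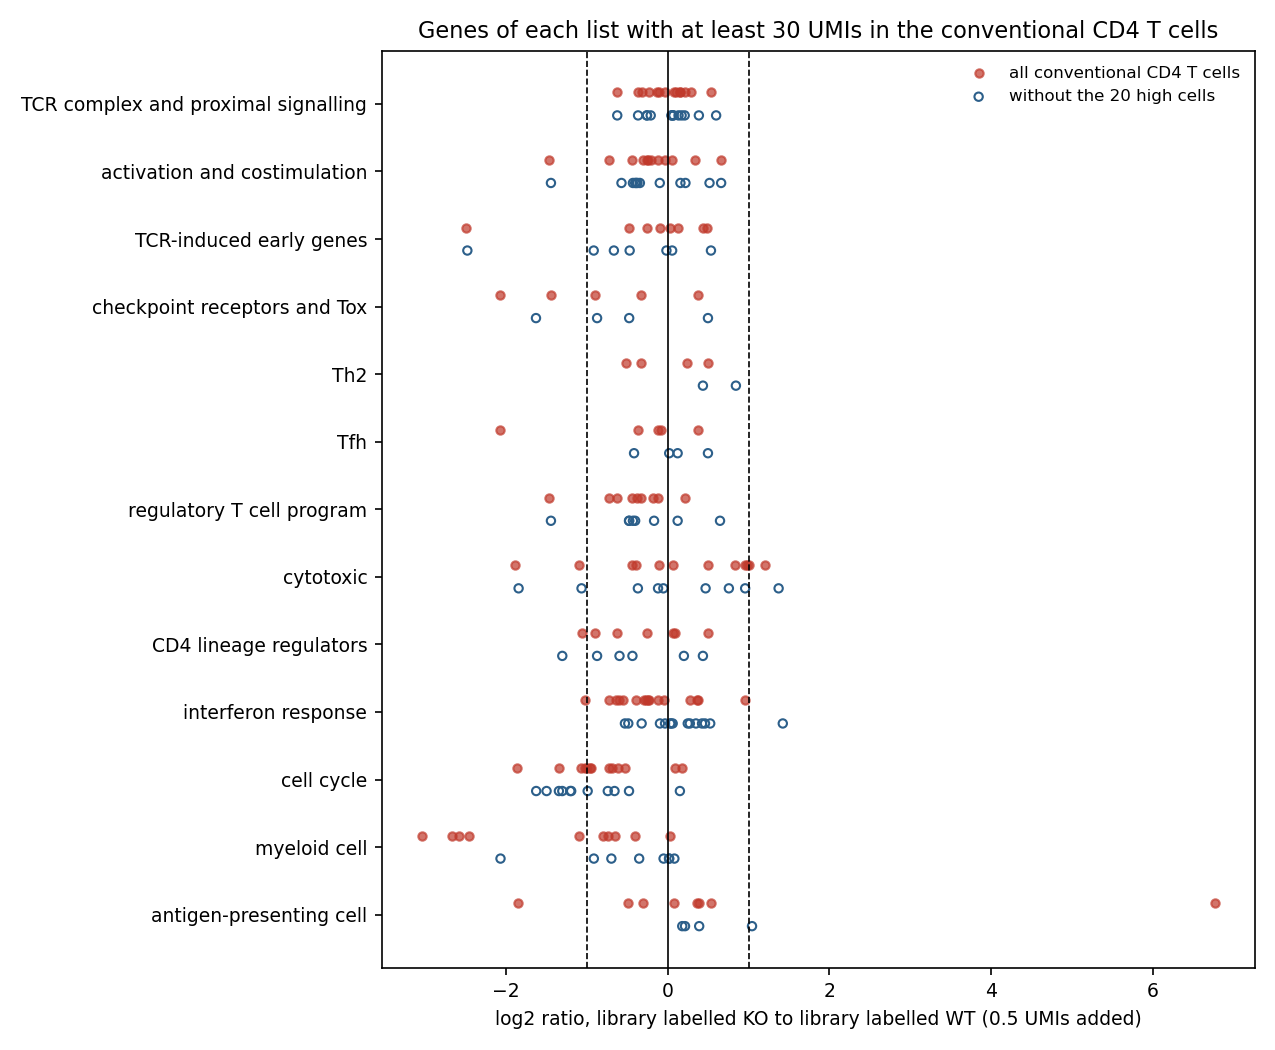
Log2 ratio (KO label over WT label) in the conventional CD4 T cells for each list gene with at least 30 UMIs, by list; filled points use all 156 cells, open points leave out the 20 high cells, and dashed lines mark 2-fold. 11 of 13 cell cycle points lie below 0 with all cells, and of the 4 myeloid points below -2 only *Cxcl2* stays there without the high cells.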

How the data were processed

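Single cells sorted from combined B16-OVA tumors were captured with the 10x Chromium 3′ V2 kit and sequenced, 1 library per genotype. Cell Ranger and the mm10 build are named in the submitters' processing notes; their versions were not given in the sources used here. Per the study's methods, the authors kept cells by limits on UMIs (300), genes (100) and mitochondrial percentage (5). The deposited values were made by the authors as the natural log of 1 plus each UMI count scaled to 10000 per cell. UMIs were recovered from the steps of these values, and all were whole within a tolerance of 0.01. The barcode suffix gave the library, and 0 columns belonged to another series.

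UMIs were summed over the cells of each class and library. Differences between genotypes were given as CPM with exact Poisson 95% intervals, and as log2 ratios with 0.5 UMIs added and exact conditional intervals, for genes with at least 30 UMIs; no test was run with 1 library per genotype. Classes were compared with limma 3.58.1 in R 4.3.3 (log2 CPM, trend, prior count 0.5, library block) with Benjamini-Hochberg adjustment over all genes. Other steps used Python 3.11.15. The fits were also run on simulated sums with the same gene shares in both libraries. Those runs do not show how the fits behave on these data. The libraries held 28801253 UMIs (WT label) and 23702018 UMIs (KO label). No doublet caller was run. In all, 13 barcodes occurred in both libraries, 1 of them among the conventional cells.

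The cells, gene lists and rules were chosen with earlier results of these data known. Named genes were those of the lists, the rule's genes, *Maoa*, and the 10 largest differences in each direction of each comparison; gene models and Y-linked genes were given as counts only. Alternatives covered the rule's limits, depth, scaling, minimum UMIs, prior count, weights, the block and the 20 high cells, the last chosen after seeing the data. A planned split of the cells by genes of resting T cells, and summaries of the lists for resting T cells, Th1, Th17 and chemokine receptors, are not reported here.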

Additional observations from a re-analysis of the deposited data

Results flagged for a closer look

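Each result here moved in one direction between the libraries in the conventional CD4 T cells and in the other direction in the CD8 T cells. With 1 library per genotype, none of these differences between classes was tested. *Satb1*, a chromatin organiser of resting T cells, had a KO to WT log2 ratio of -1.13 in the conventional cells and 1.09 in CD8 cells, and of -0.92 in the conventional cells without the high cells.

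The 3 other genes belong to antigen-presenting or myeloid cells. The lysozyme gene *Lyz2* was at -2.58 against 1.08 in CD8 cells, with 202 UMIs in 1 cell and a ratio of 0.02 without the high cells. The lectin gene *Clec10a* was at -2.68 against 1.47, with 30 UMIs in 1 cell and 1 and 0 UMIs left without the high cells. The dendritic cell gene *Fscn1* was at -1.85 against 1.01, with 51 UMIs in 1 cell and 0 and 2 UMIs left without the high cells.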

How the results depend on the processing

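Counts are given as higher and lower. Limits on myeloid and *Cd3* UMIs and on high cells were applied to all 3 classes, and that on *Cd4* to both CD4 classes. Against *Foxp3*+ cells (7 and 10), the lower count was 16 with 0 myeloid UMIs, 21 with at least 3 *Cd3* UMIs, 20 with thinned cells, 17 each without the deepest cells of each class, with 0 *Il2ra* UMIs and without shared barcodes, 37 with voom weights and 6 without the library block. The higher count was 11 under median of ratios scaling. Both counts moved to 1 and 1 with at least 2 *Cd4* UMIs, 14 and 21 with gates at 2 UMIs, 108 and 194 for the mean of CPM over cells, 1 and 2 at a minimum of 10 UMIs, 36 and 70 at 100 UMIs, 63 and 88 with only the classes compared, and 16 and 37 with a prior count of 2.

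Against CD8 cells (121 and 49), limma called 0 and 0 with 0 myeloid UMIs, where 508 genes had an unadjusted p under 0.05. The counts were 2 and 2 with at least 2 *Cd4* UMIs, 7 and 4 without the high cells, 18 and 6 with thinned cells, 22 and 7 without the deepest cells of each class, 23 and 18 with 0 *Il2ra* UMIs, 23 and 7 at a minimum of 10 UMIs, 240 and 130 at 100, 25 and 11 without the library block, 228 and 127 with only the classes compared, 211 and 101 with a prior count of 2, and 665 and 211 with voom weights. The higher count was 185 with at least 3 *Cd3* UMIs, and the lower count 111 under median of ratios scaling. Directions turned for *Cd209a* (-2.23), *Kmo* (-0.28), *H2-Aa* (-0.14), *H2-Ab1* (-0.20) and *H2-Eb1* (-0.34) with at least 2 *Cd4* UMIs, for *Cd209a* (-1.76) and *H2-Eb1* (-0.036) without the high cells, and for *Cd209a* (-1.43) without the deepest cells of each class.

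Between libraries (65 and 124), the counts were 29 and 50 with thinned cells, 380 and 475 at a minimum of 10 UMIs, and 5 and 23 at 100. The lower count was 56 with at least 2 *Cd4* UMIs, 70 with 0 myeloid UMIs and 82 without the high cells. Ratios changed sign for *Gzma* (0.40), *Lyz2* (0.23) and *Cd68* (0.80) with 0 myeloid UMIs, *Atf3* (-0.32) with thinned cells, and *Klrd1* (-0.12), *Isg15* (0.42) and *Lyz2* (0.019) without the high cells. The share of TIIs was 1.25% and 1.44% with at least 2 *Cd4* UMIs and 1.13% and 1.90% with 0 myeloid UMIs. Unthinned shares labelled WT were 24.6% for *Cd40lg*, 50.8% for *Icos* and 49.2% for *Cd5*. The cause of these changes was not tested. The block paired the classes within each library. No paired analysis was possible between genotypes because there was 1 library of each and the labels give no replicate numbers. Between genotypes, leaving out a library was not possible with 1 of each. Between classes it left 1 library, in which the difference of each named gene was taken without a test.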
